A study of Mus musculus with 20 samples.

Results

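Lysozymes and lysosomal cathepsins are the digestive enzymes that macrophages and other phagocytes use to break down bacteria, matrix and engulfed material. The 9 genes listed were the lysozymes Lyz1 and Lyz2, the cathepsins Ctsk, Ctss, Ctsb, Ctsd, Ctsl and Ctsz, and the phosphatase Acp5. They were looked up by symbol on array rows that the platform annotation ties to exactly 1 gene, and where a gene had several rows the row was to be chosen by the highest mean level over all arrays. No listed gene had more than 1 such row, so no measured value decided a member's level. Of the 9 listed genes, 8 were measured among 30142 genes in all. The row that names Ctsd also names Ifitm10, so no level of Ctsd is given.

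RNA came from bladders and metastases of CKO mice on the FVB/N background, which carry Rbf/f and other floxed genes and are p107-/- throughout, the normal bladders included. The 20 arrays held 5 normal bladders, 7 bladders given an adenovirus that codes for Cre (tumour bladders), 3 such bladders also given Palbo+CDDP (treated bladders), 4 metastases and 1 metastasis titled PALBO-MET. Treatment was the Cdk4/6 inhibitor palbociclib at 150 mg/kg into the peritoneum each day over 28 days, with 6 mg/kg of the platinum drug CDDP each week. The study asked how tumours and metastases of this bladder cancer model respond to that treatment. The promoter that drives Cre, the organ of each metastasis, and the ages and sexes of the mice are not given in the sources used here, and apart from its title the PALBO-MET array is described only as a metastasis. The labels tie no array to an animal of its own, so p-values measure the spread between these samples, which may be technical.

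As background, Lyz1 and Lyz2 cut the peptidoglycan of bacterial walls; Lyz1 is known from Paneth cells of the intestine and Lyz2 from macrophages and neutrophils. The cathepsins are proteases that are made as inactive precursors, sorted to the lysosome and activated by its acid. Cathepsin K degrades bone collagen, cathepsin S trims the invariant chain of MHC class II, cathepsins B and L are general lysosomal proteases, cathepsin Z trims single residues from the C-terminus, and Acp5 is the tartrate-resistant acid phosphatase by which osteoclasts and some macrophages are stained. Tumours are known to hold macrophages that release such enzymes into the matrix.

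The 2 lysozyme genes are close copies that lie next to each other on chromosome 10, with no annotated gene between them. Their promoters are printed because both genes were high on the same arrays, and that of Ctsk because it was the other gene of the 8 that passed a test. Each is the stretch of 250 bases before the start of the gene, from RefSeq's annotation of GRCm38.p6, at chr10:117292869-117293118 (minus strand) for Lyz1, chr10:117282273-117282522 (minus strand) for Lyz2 and chr3:95498960-95499209 (plus strand) for Ctsk, written 5′ to 3′ along the gene. Capitals mark the letters ACTTCC, the reverse complement of GGAAGT, which is a core read by factors of the ETS family.
Lyz1: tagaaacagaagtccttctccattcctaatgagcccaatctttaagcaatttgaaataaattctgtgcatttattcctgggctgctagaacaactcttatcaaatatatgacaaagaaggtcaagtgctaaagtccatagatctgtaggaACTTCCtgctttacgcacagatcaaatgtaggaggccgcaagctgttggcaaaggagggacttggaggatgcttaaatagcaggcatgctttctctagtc
Lyz2: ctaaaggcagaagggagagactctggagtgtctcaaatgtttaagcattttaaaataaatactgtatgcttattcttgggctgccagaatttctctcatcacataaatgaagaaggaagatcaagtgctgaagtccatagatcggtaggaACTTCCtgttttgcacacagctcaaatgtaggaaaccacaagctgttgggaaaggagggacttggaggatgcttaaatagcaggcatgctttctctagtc
Ctsk: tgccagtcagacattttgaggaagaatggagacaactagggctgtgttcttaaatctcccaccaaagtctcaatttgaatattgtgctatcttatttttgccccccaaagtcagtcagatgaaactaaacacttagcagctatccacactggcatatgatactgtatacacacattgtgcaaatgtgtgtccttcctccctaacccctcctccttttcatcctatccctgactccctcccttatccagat
Aligned end to end, the Lyz1 and Lyz2 stretches had 200 identical positions, or 80.0% of the 250 bases. Over all 42 pairs of promoters of different listed genes the median was 48.0%, and no other pair was above 54.0%. The capitals stand at the same distance, 100 bases before the start, in both lysozyme promoters. GGAAGT was searched on both strands after the sequences had been seen, and it stands in 19.7% of all 32851 promoters of this length and in 3 of the 10 promoters found for the listed genes (Lyz1, Lyz2 and 1 of 3 for Acp5). The longer PU.1 box GAGGAAGT, which contains GGAAGT, was in none of the 10 and in 2.44% of all promoters. The E-box CACGTG, the core letters read by the lysosomal regulator TFEB, was in the promoters of Ctsd and Ctsl and in 6.02% of all promoters, and its longer form TCACGTGA was in that of Ctsd and in 0.785%. TGANTCA, read by AP-1 factors, was in none of the 10 and in 6.75%. These matches describe the letters only. Because the lysozymes are close copies, how far the array separates their transcripts is not known here, and each of the pair is reported with that doubt.

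The arrays fell into 2 kinds. In 8 of them, rows of low mean scattered with an SD above 0.30 and bright rows correlated with no other array above r = 0.25. These were metastases 3 and 4, tumour bladders numbered 3, 4 and 5 and normal bladders numbered 4, 5 and 6. The other 12 did not meet both conditions of this rule, which came from an earlier look at these data. The differences between metastases and tumour bladders are therefore given for each gene over all 20 arrays, over the 12 and over the 8. The 8 hold no treated bladder. Uroplakin and smooth muscle genes, the markers of bladder wall, also differed within groups. Upk1a stood at 14.18 on tumour bladder 7, at 5.46 and 5.99 on metastases 1 and 2 and at 4.07 on the PALBO-MET array. On the 8 arrays the groups hardly differed in the mean level of smooth muscle markers. It was 6.79 to 6.89 on normal bladders, 6.67 to 6.85 on tumour bladders and 6.75 to 6.77 on metastases. Among the 12, normal bladders stood at 8.73 and metastases at 5.56 to 5.70. Small differences over the 8 are to be read with that limit. Xist, which marks cells with an inactive X chromosome, was at 11.71 to 11.74 on normal bladders 1 and 2. These are the only normal bladders among the 12. On the 12 it was at 5.43 to 5.86 on tumour bladders, 6.04 to 10.05 on treated bladders and 5.44 to 5.73 on metastases. On the 8 it was at 6.74 to 7.19 whatever the group. In comparisons of metastases or tumour bladders of the 12 with normal bladders 1 and 2, group and whatever sets Xist cannot be told apart. The same holds where treated bladders are compared with tumour or normal bladders of the 12.

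**Figure D1:**
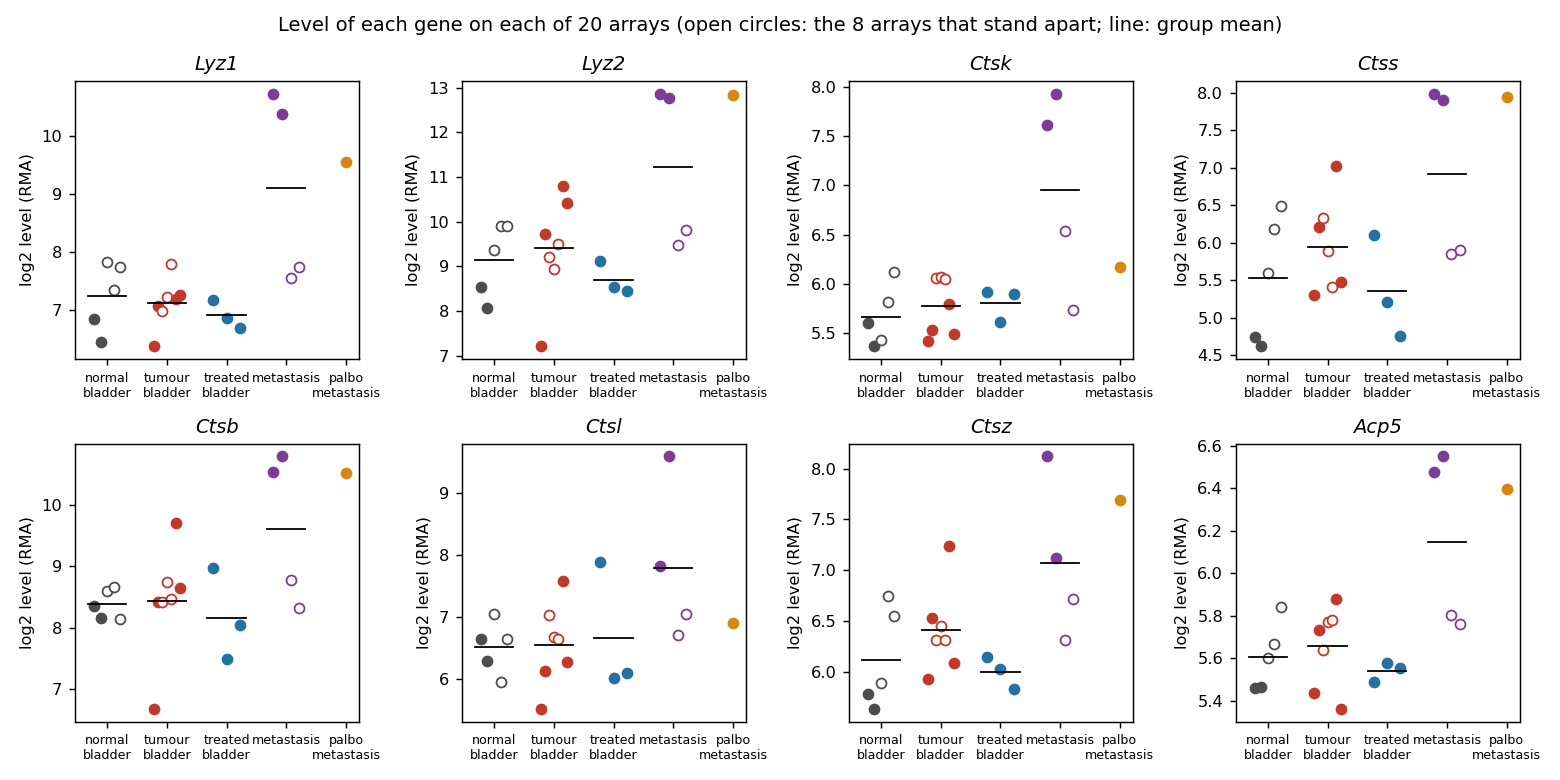
Log2 level of each of the 8 measured genes (1 panel per gene, vertical axis) by group, with 1 point per array; lines are group means and open points the 8 arrays that stand apart. Metastases 1 and 2 and the PALBO-MET array were the 3 highest points for Lyz1, Lyz2, Ctss, Ctsb and Acp5, as with Lyz2 at 12.87, 12.77 and 12.84 against at most 10.80 in a bladder.

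Metastases were compared with tumour bladders. All 8 genes had a higher mean in the metastases, where 43.9% of all genes did, by a median log2 difference of 1.18 against -0.026 for all genes. None passed limma's test over all 20 arrays (adjusted p 0.841 to 0.861), and neither did any other gene (0% called). At an unadjusted p under 0.05, 7 of the 8 were higher, all but Ctss, where 2.42% of all genes were. The high levels were those of metastases 1 and 2, and over the 8 arrays alone the median of the 8 genes was 0.082. Over the 12 arrays, Lyz1 and Ctsk rose, and 7 of the 8 genes did not overlap between the groups, where 4.73% of all genes did not overlap in that direction. In bulk RNA, more cells of a type and more RNA per cell cannot be told apart.

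Lyz1 stood at log2 levels of 10.72, 10.37, 7.56 and 7.75 on metastases 1 to 4, and at 6.38 (lowest), 7.19 (median) and 7.79 (highest) on the 7 tumour bladders. Metastases 1 and 2 lay above every bladder, while metastases 3 and 4 lay within the range of the tumour bladders. Over all arrays the means were 9.10 ± 1.68 (SD, n = 4) and 7.13 ± 0.42 (SD, n = 7), a log2 difference of 1.97 ± 0.49 (SE) with limma's adjusted p = 0.841. Among the 12 arrays, with 2 metastases at a mean of 10.55 and 4 tumour bladders at 6.98, the log2 difference was 3.57 ± 0.27 (SE), an 11.8-fold higher level, and limma's adjusted p was 0.00178. Over the 8 arrays it was 0.32 ± 0.26. That call for Lyz1 was lost with only the 2 groups in the fit (adjusted p = 0.0760), and it held with the PALBO-MET array counted as a metastasis (difference 3.23, adjusted p = 0.0095) and with each of the 6 arrays left out in turn (differences 3.37 to 3.74). Leaving out metastasis 1 or 2 leaves 1 metastasis, which is then assumed to vary like the other groups.

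Lyz2, the copy known from macrophages, was at 12.87, 12.77, 9.47 and 9.82 on metastases 1 to 4. The tumour bladders ran from 7.21 through a median of 9.50 to 10.80. Again metastases 1 and 2 alone lay above the tumour bladders. The Lyz2 difference was 1.83 ± 0.68 (SE) over all arrays, 3.28 ± 0.80 over the 12 (limma's adjusted p = 0.791) and 0.43 ± 0.24 over the 8. The tumour bladders of the 12 spread over 7.21, 9.72, 10.80 and 10.41 for Lyz2 but only from 6.38 to 7.27 for Lyz1, and the standard error of Lyz2 was the wider.

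Ctsk, the collagen-degrading cathepsin of osteoclasts, stood at 7.61, 7.93, 6.54 and 5.73 on metastases 1 to 4, and at 5.42, 5.80 and 6.07 as the lowest, median and highest tumour bladder. Metastases 1, 2 and 3 lay above every tumour bladder and metastasis 4 within them. The log2 difference was 1.18 ± 0.30 (SE) over all arrays, with limma's adjusted p = 0.841. Over the 12 arrays Ctsk rose by 2.22 ± 0.17 (SE), 4.64-fold, from 5.56 to 7.77, with limma's adjusted p = 0.00181. Over the 8 it differed by 0.076 ± 0.27. The call for Ctsk was lost with only the 2 groups in the fit (adjusted p = 0.0965) and with the PALBO-MET array counted as a metastasis (difference 1.68, adjusted p = 0.648), and held with each of the 6 arrays left out in turn (differences 2.05 to 2.38), with the same assumption where 1 metastasis was left.

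Lyz1 and Ctsk were 2 of the 3 genes among 30142 that passed over the 12 arrays (0.00995% called). The other was Ahsg, the liver glycoprotein fetuin-A, at 10.16 and 9.86 on metastases 1 and 2, 6.50 on the PALBO-MET array and at most 6.63 on a bladder (difference 4.68 ± 0.33, limma's adjusted p = 0.00178). By unadjusted p the 8 genes took places 2 (Lyz1), 3 (Ctsk), 14 (Acp5), 81 (Lyz2), 82 (Ctss), 217 (Ctsb), 224 (Ctsl) and 291 (Ctsz) of 30142. Because the 8 were chosen with earlier results of these data known, these calls and places are not independent evidence.

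Ctss, the cathepsin of antigen presentation, was at 7.99, 7.90, 5.85 and 5.90 on the 4 metastases and at 5.30, 5.89 and 7.02 as lowest, median and highest tumour bladder. Its log2 difference was 0.96 ± 0.48 (SE) over all arrays and 1.95 ± 0.47 over the 12, with limma's adjusted p = 0.791. Over the 8 arrays the difference was 0.0012 ± 0.32. The high metastases lay above the highest tumour bladder, number 6, by less than that bladder lay above the median.

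Ctsb and Ctsl encode the general lysosomal proteases. Ctsb stood at 10.54, 10.78, 8.77 and 8.32 on the metastases and at 6.68, 8.47 and 9.70 as lowest, median and highest tumour bladder. Ctsl stood at 7.82, 9.60, 6.70 and 7.04 on the metastases and at 5.51, 6.64 and 7.58 likewise. For both, metastases 1 and 2 lay above every tumour bladder. The log2 difference of Ctsb was 1.17 ± 0.49 (SE) over all arrays, 2.30 ± 0.68 over the 12 and 0.010 ± 0.22 over the 8. That of Ctsl was 1.24 ± 0.49, 2.34 ± 0.70 and 0.087 ± 0.31. Over the 12, limma's adjusted p was 0.862 for both. Ctsl was the most uneven of the 8 between the 2 high metastases, by 1.78 on the log2 scale, and metastasis 1 lay below treated bladder 1, at 7.90.

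Ctsz, the carboxypeptidase, was at 8.12, 7.12, 6.32 and 6.72 on the metastases and at 5.93, 6.32 and 7.24 as lowest, median and highest tumour bladder. It is the 1 gene of the 8 whose groups overlapped over the 12 arrays, since metastasis 2 lay below tumour bladder 6. Its difference was 0.66 ± 0.30 (SE) over all arrays, 1.17 ± 0.37 over the 12 (limma's adjusted p = 0.862) and 0.16 ± 0.26 over the 8. Acp5, the phosphatase that shares the osteoclast with Ctsk, was at 6.48, 6.55, 5.81 and 5.76 on the metastases and at 5.36, 5.73 and 5.88 as lowest, median and highest tumour bladder. The high metastases lay above the highest bladder by 0.60 and 0.67. The difference from the tumour bladders was 0.49 ± 0.15 (SE) over all arrays, 0.91 ± 0.17 over the 12 (limma's adjusted p = 0.462) and 0.054 ± 0.14 over the 8.

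**Figure D2:**
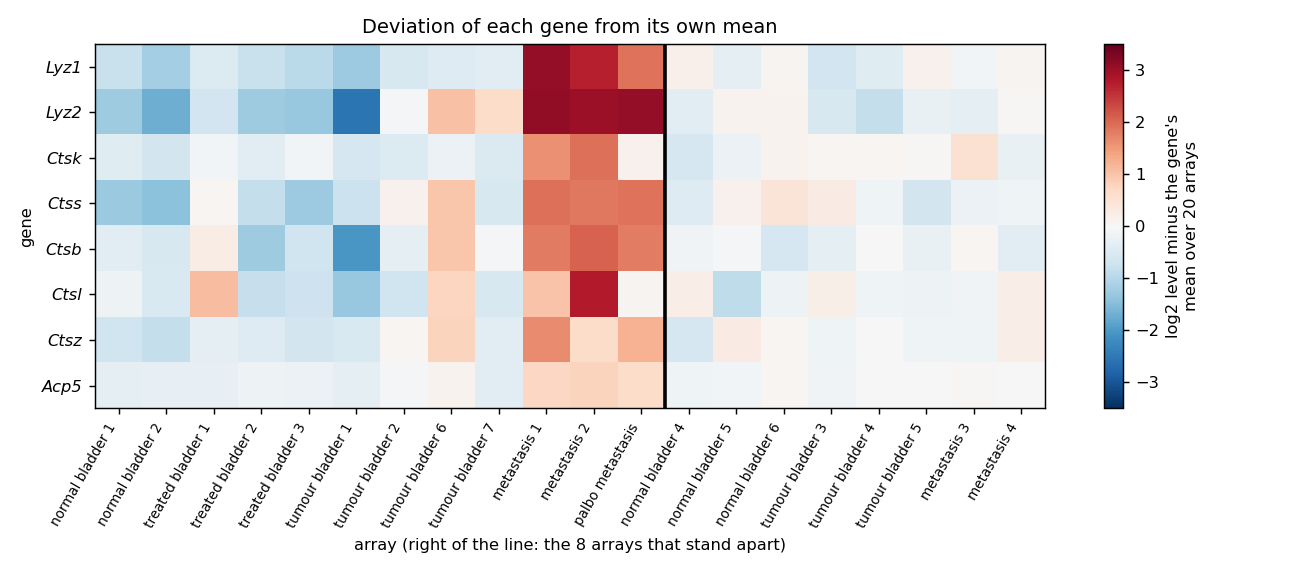
Log2 level of each of the 8 genes (rows) on each of the 20 arrays (columns) minus the gene's mean over all arrays, with the arrays that stand apart to the right of the line. Deep red cells gather on metastases 1 and 2 and the PALBO-MET array, and pale cells fill the 8 arrays, metastases 3 and 4 among them.

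The 5 metastasis arrays differed among themselves. The mean of the 8 genes was 9.02 on metastasis 1 and 9.13 on metastasis 2, against 7.13 on each of metastases 3 and 4. Metastases 3 and 4 are among the 8 arrays that stand apart, on which the groups hardly differed in smooth muscle markers either. Their lower values are to be read with that limit. The PALBO-MET array, at 8.50, followed the high pair for Lyz2 (12.84), Ctss (7.94) and Ctsb (10.51), lay below it for Lyz1 (9.55), between its 2 arrays for Ctsz (7.69), and was lower for Ctsk (6.17) and Ctsl (6.91), where it came near the bladders. Of the 8 genes, 8 on metastasis 1, 7 on metastasis 2, 7 on PALBO-MET, 1 on metastasis 3 and 0 on metastasis 4 lay above every tumour bladder. Of all genes, 12.4%, 8.99%, 9.34%, 8.88% and 7.91% did so on these arrays in that order. PALBO-MET is 1 array, so it has no replicate check.

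Metastases were also compared with normal bladders, with the same metastasis arrays as above. Over all 20 arrays no gene of the 8 passed limma's test (adjusted p 0.717 to 0.720; 0% of all genes called), and all 8 were higher at an unadjusted p under 0.05, where 3.1% of all genes were. The log2 differences ran from 0.54 ± 0.16 (SE) for Acp5 to 2.08 ± 0.73 for Lyz2, with a median of 1.29 against -0.013 for all genes. On the 5 normal bladders Lyz1 lay at 6.86, 6.46, 7.83, 7.34 and 7.74 and Ctsk at 5.60, 5.36, 5.43, 5.81 and 6.12. Both genes were below metastases 1 and 2 on every one of them. Over the 12 arrays the difference was 3.89 ± 0.31 for Lyz1 (limma's adjusted p = 0.00305) and 2.29 ± 0.20 for Ctsk (0.00497), and both rose, again with Ahsg as the only other of 3 genes called (0.00995%). Lyz2 differed by more, 4.51 ± 0.92, without passing (0.292), and Ctss by 3.27 ± 0.55 did not pass either (0.185). All 8 genes lay above both normal bladders of the 12, where 22.2% of all genes did. Without normal bladder 1 the call for Ctsk was lost (adjusted p = 0.0656), and without normal bladder 2 those for Lyz1 (0.0841) and Ctsk (0.149) were. With the PALBO-MET array counted as a metastasis (Ctsk 0.252) or with quantile normalization (0.0754) Ctsk did not pass. Among the 8 arrays the median of the 8 genes was 0.081.

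**Figure D3:**
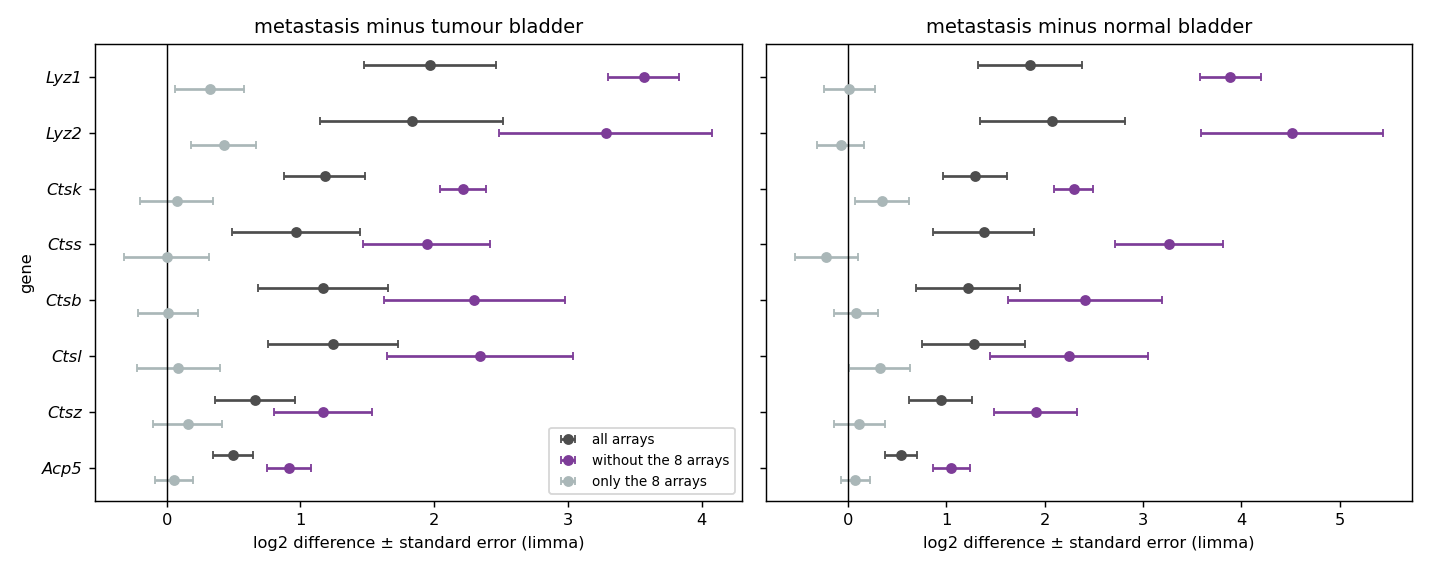
Log2 differences of the 8 genes, metastasis minus tumour bladder and metastasis minus normal bladder, with bars of 1 SE. They are drawn over all 20 arrays, without the 8 that stand apart and over those 8 alone. Metastasis minus tumour bladder for Lyz1 goes from 1.97 to 3.57 when the 8 are left out.

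Between tumour and normal bladders no difference was detected in these genes. None of the 8 passed (limma's adjusted p = 0.998 for each; 0% of all genes called), and none reached an unadjusted p under 0.05, where 2.39% of all genes were higher and 1.86% lower. The differences ran from -0.11 ± 0.46 (SE) for Lyz1 to 0.42 ± 0.45 for Ctss, with a median of 0.083 against 0.012. Ctss stood at 4.74, 4.62, 5.60, 6.19 and 6.49 on the 5 normal bladders, and the 7 tumour bladders lay from 5.30 to 7.02. The 2 lowest normal bladders lay below every tumour bladder and the other 3 within them. Without the 8 arrays the Ctss difference was 1.32 ± 0.47, with limma's adjusted p = 0.993, and Lyz2 differed by 1.23 ± 0.80. Ctss and Ctsz, 2 of the 8 genes, did not overlap there, where 7.67% of all genes did not. Tumour bladders varied more than normal bladders in Ctsb (SD 0.90 against 0.25), from 6.68 on number 1 to 9.70 on number 6. They also varied more in Lyz2, Ctsl and Acp5. In Lyz1 (0.42 against 0.58), Ctsk (0.29 against 0.31), Ctss (0.62 against 0.84) and Ctsz (0.42 against 0.50) they varied less. Tumour bladder 6 was the highest of all 15 bladders for Lyz2, Ctss, Ctsb, Ctsz and Acp5.

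Treated bladders were compared with tumour bladders. None of the 8 genes passed (limma's adjusted p = 0.99995 for each; 0% of all genes called) and none reached an unadjusted p under 0.05, where 0.182% of all genes were higher and 0.159% lower. Lyz2 lay at 9.11, 8.54 and 8.44 on the 3 treated bladders, all within the tumour range of 7.21 to 10.80, a difference of -0.71 ± 0.75 (SE). Ctss lay at 6.10, 5.21 and 4.76, with a difference of -0.59 ± 0.53, and Ctsz at 6.15, 6.03 and 5.84, with one of -0.41 ± 0.33. The other 5 genes differed by -0.27 to 0.12. Without the 8 arrays Lyz2 differed by -0.84 ± 0.70, Ctss by -0.64 ± 0.42 and Ctsz by -0.44 ± 0.32, and the median of the 8 genes was -0.13. With array weights Ctsl differed by 0.99 ± 0.46 (limma's adjusted p = 0.585). Treated bladder 1 was the highest of the 3 for 7 of the 8 genes, all but Acp5, and its Ctsl, at 7.90 against 6.01 and 6.09, was the highest of all bladders. Against normal bladders none of the 8 passed either (limma's adjusted p = 0.99997 for each; 0% of all genes called) and none reached an unadjusted p under 0.05, where 0.209% of all genes were higher and 0.149% lower. The differences ran from -0.46 ± 0.80 for Lyz2 to 0.15 ± 0.57 for Ctsl. Without the 8 arrays the median of the 8 genes was 0.28, and with array weights Ctsl differed by 1.07 ± 0.44 (limma's adjusted p = 0.417).

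The genes were then set against one another. Over the 12 arrays the 28 pairs of the 8 genes had Pearson's r of 0.579 to 0.955 (median 0.868). Over the 9 bladder arrays among them r was 0.301 to 0.945 (median 0.622), and over the 8 arrays that stand apart -0.526 to 0.669 (median -0.130). All points share their array and its RNA, and over the 12 the 3 metastases lie far from the bladders, so these are descriptions. Lyz1 and Lyz2 had r = 0.923 over the 12 and 0.904 over the bladders. Ctss and Ctsz had 0.955 and 0.945, and this pair varied together among bladders too. Ctsk was looser: with Ctss it had r = 0.767 over the 12 and 0.357 over the bladders, and with Acp5 0.869 and 0.359.

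**Figure D4:**
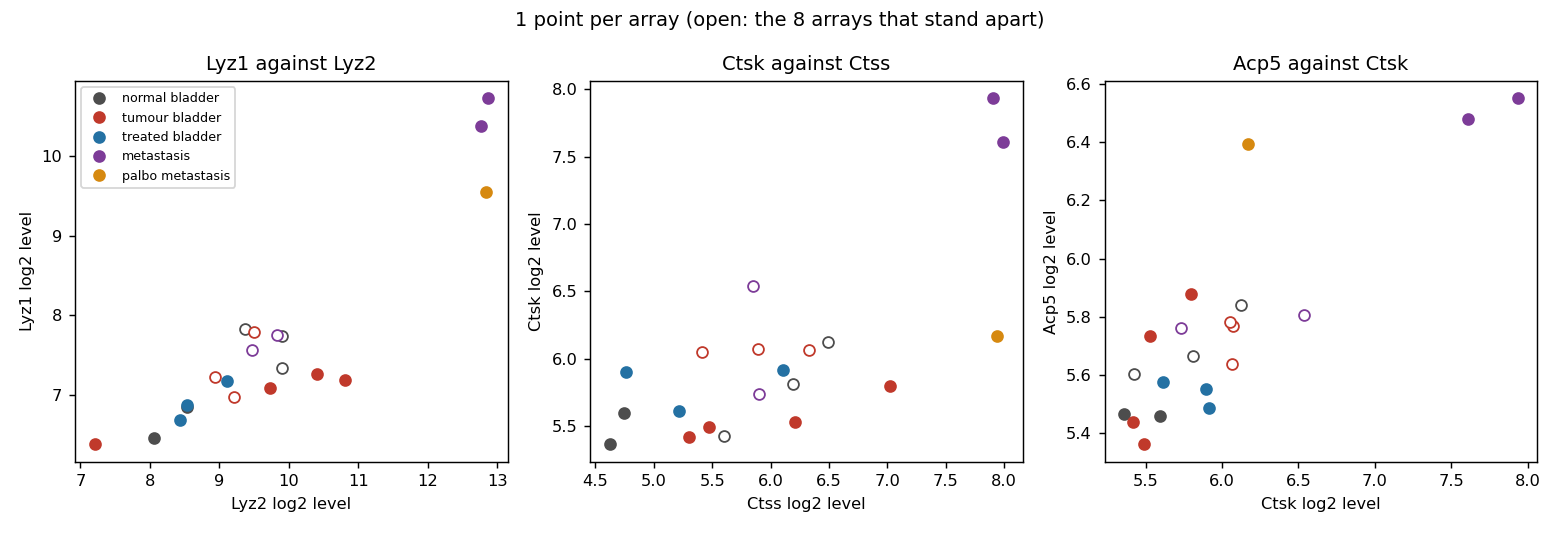
Log2 levels of Lyz1 against Lyz2, Ctsk against Ctss and Acp5 against Ctsk, with 1 point per array coloured by group and open points for the 8 arrays that stand apart. Metastases 1 and 2 lie at the top right of each panel, and PALBO-MET lies with them for Ctss (7.94) but near the bladders for Ctsk (6.17).

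Other genes were ranked by Pearson's r with 3 of the 8 over the 12 arrays. Lyz2 was most like Ctsa (r = 0.977), the lysosomal protective protein, the RNA sensor Tlr7 (0.974) and Csf1r (0.964), the receptor for the macrophage growth factor CSF1, and over the 9 bladder arrays these stayed at 0.919, 0.932 and 0.860. Ctss was most like Inpp5d (0.982), the lipid phosphatase SHIP1 of blood cells, the RNA sensor Tlr8 (0.981) and Lpxn (0.974), with 0.966, 0.959 and 0.925 over the bladders. Ctsk was most like Mkrn1 (0.980), Tango6 (0.961) and Snx24 (0.950), and over the bladders these came to 0.719, 0.274 and 0.155. Over the 8 arrays the likenesses of Lyz2 and Ctss were between -0.206 and 0.296.

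The rest of the lysosome was read from lists of its other genes, of which none passed limma's test between metastases and tumour bladders over all arrays. The median log2 differences, over all arrays and then over the 12, were 0.50 and 0.88 for 12 lysosomal membrane proteins (12 higher), 0.23 and 0.60 for 16 subunits of the proton pump (15 higher) and 0.22 and 0.53 for 23 other hydrolases and activators (21 higher). They were 0.26 and 0.14 for 8 other cathepsins (5 higher), 0.20 and 0.093 for 9 cathepsin inhibitors (6 higher), 0.059 and 0.23 for 6 sorting receptors and enzymes (5 higher) and 0.27 and 0.44 for 8 transcription factors (8 higher). All of these medians lie below the 1.18 and 2.26 of the 8 genes, against -0.026 and -0.076 for all genes. The 8 genes were chosen with earlier results of these data known, so their higher medians do not set them apart from the rest of the lysosome. Among the members of these lists, the legumain gene Lgmn, an asparagine protease that activates cathepsins, differed most, by 1.21 ± 0.62 (SE; limma's adjusted p = 0.861), and Naglu, which degrades heparan sulfate, differed by -0.054. Ctsc, the activator of granule proteases, was at 11.14 on metastasis 1 and 7.11 on metastasis 2, so that not all cathepsins were high on both. Gnptab, which makes the mannose phosphate tag that sorts enzymes to the lysosome, differed by 0.75 ± 0.25. Nagpa was the lowest of that list, at -0.015 ± 0.079. Ctsw, a cathepsin of cytotoxic lymphocytes, differed by -0.40 ± 0.10. Laptm5, a lysosomal membrane protein of blood cells, differed by 0.76 ± 0.36, and Mcoln1, the lowest of its list, by 0.062 ± 0.12. The pump subunit gene Atp6v1b2 differed by 0.58 ± 0.23, and the lowest there, Atp6v1g1, by -0.11 ± 0.092. The inhibitor gene Cstb differed by 0.89 ± 0.56, and the lowest there, Stfa1, by -0.27 ± 0.35. The myeloid factor gene Cebpa differed by 0.53 ± 0.28. Tfeb, the regulator of lysosomal genes, differed by 0.061.

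Markers of macrophages and monocytes were high on metastasis 1 and PALBO-MET and less so on metastasis 2. Of 19 markers 16 were higher in metastases than in tumour bladders, with a median of 0.51 over all arrays and 0.96 over the 12, and none passed. Tyrobp, an adaptor of myeloid receptors, differed most, by 1.23 ± 0.60 (SE), and the chemokine receptor gene Cx3cr1 least, by -0.33 ± 0.21. Their mean level per array was 5.62 to 6.31 on normal, 5.68 to 6.83 on tumour and 5.59 to 6.12 on treated bladders, 7.59, 6.74, 6.18 and 6.20 on metastases 1 to 4 and 7.35 on PALBO-MET. Metastasis 2 thus lay below the highest tumour bladder in these markers, while its mean of the 8 genes was the highest of all arrays. Of the 19 markers, 12 on metastasis 1, 7 on metastasis 2 and 12 on PALBO-MET lay above every bladder. Of all genes, 12.4%, 8.99% and 9.34% lay above every tumour bladder on these arrays in that order. At most these shares lay above every bladder. Csf1r stood at 7.28 and 6.99 on metastases 1 and 2 and at 7.15 on PALBO-MET, against 5.56 to 6.62 on the bladders. Cx3cr1 (6.65), Ccr2 (5.41), Fcgr1 (5.08) and Aif1 (5.63) on metastasis 2 lay below the highest bladder. Cd68, a lysosomal membrane protein of macrophages, stood at 8.01, 8.29 and 7.87 on metastases 1 and 2 and PALBO-MET against at most 7.16. Among the 12 arrays, and then the 9 bladders of these, the mean marker level had r of 0.989 and 0.963 with Ctsz, 0.956 and 0.960 with Ctss, and 0.925 and 0.850 with Lyz2. With Lyz1 it had 0.855 and 0.747, with Ctsl 0.571 and 0.544 and with Ctsk 0.671 and 0.269. The part of macrophages in the levels of the 8 genes was not tested.

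**Figure D5:**
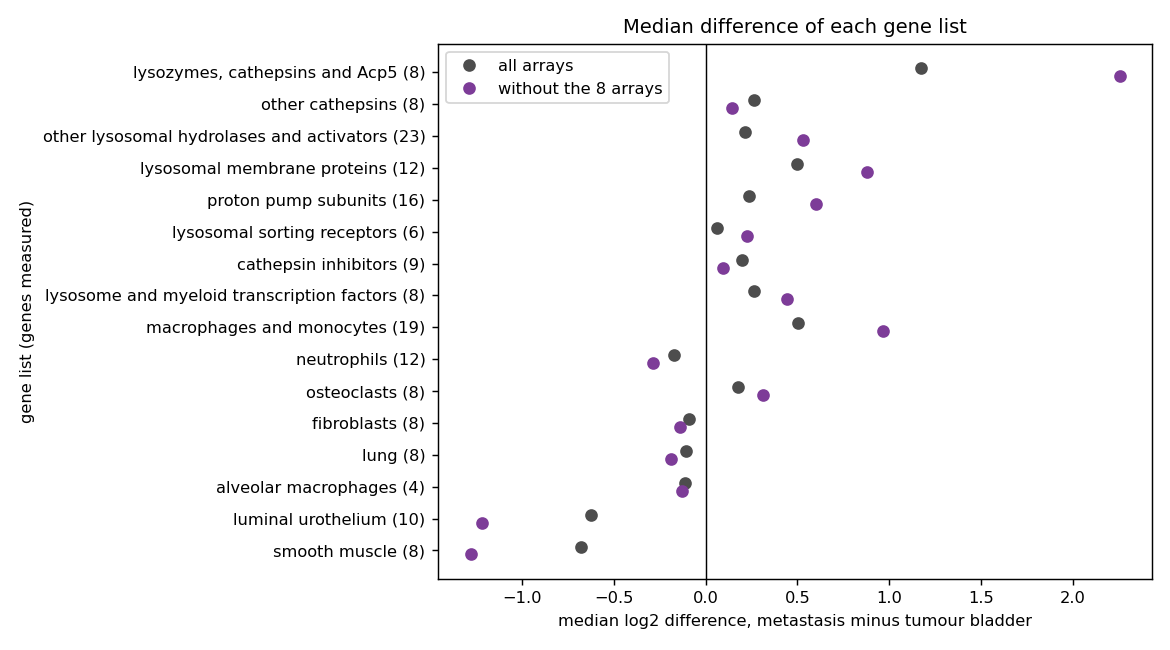
Median log2 difference, metastasis minus tumour bladder, of the 8 genes and of other gene lists, over all arrays and without the 8 that stand apart. The medians of the 8 genes, at 1.18 and 2.26, are the highest of the lists drawn, but the 8 were chosen with earlier results of these data known.

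Other markers were read the same way. Of 12 neutrophil markers 11 were lower in metastases than in tumour bladders (median -0.17, and -0.29 over the 12), at means of 5.89 to 6.13 on metastases, 5.56 to 7.21 on tumour bladders and 7.08 on PALBO-MET. Of 8 osteoclast markers outside the listed genes 6 were higher (median 0.17, and 0.31 over the 12 arrays), with means of 5.60 and 5.25 on metastases 1 and 2, 5.19 on PALBO-MET and at most 5.16 on a bladder. The defining markers Ocstamp and Siglec15 lay above the array's median level on 0 of 20 arrays, Dcstamp on 1, Oscar on 2 and Calcr on 3, and Mmp9 did on 10, Itgb3 on 14 and Tnfrsf11a on 19. On metastasis 1, 4 of these 8 lay above every bladder, where at most 12.4% of all genes did (the share above every tumour bladder). These were Oscar (5.85 against 5.33), Dcstamp (5.43 against 4.94), Ocstamp (5.11 against 4.63) and Mmp9 (6.95 against 5.63). On metastasis 2 only 1 of the 8 did, where at most 8.99% of all genes did. Mmp9 differed by 0.71 ± 0.25 (SE), and the lowest of these markers, Itgb3, by -0.14 ± 0.14. Lung markers had means of 4.94 to 5.49 in every group, with Sftpb above the array's median on 0, Sftpc on 1, Lamp3 and Napsa on 2 each, Scgb1a1 on 9, Sftpa1 on 10, Sftpd on 16 and Ager on 20 of 20 arrays. The medians of lung and of alveolar macrophage markers were both -0.11, and -0.19 and -0.13 over the 12. Of 5 markers of Paneth cells and intestine, the cells known for Lyz1, none lay above every bladder on metastasis 1 or 2 (median -0.12, and -0.26 over the 12). Of 6 measured liver markers 5 were higher (median 0.64, and 1.10 over the 12), with Alb at 5.03 and 9.40 and Fgb at 4.74 and 9.95 on metastases 1 and 2. On these arrays 1 and 4 of the 6 lay above every bladder, where at most 12.4% and 8.99% of all genes did. Ttr, at 4.43 and 5.37, and Apoc3, at 4.77 and 5.40, lay below the highest bladder on both. Of 10 luminal urothelium markers 8, and of 8 smooth muscle markers 8, were lower in metastases (medians -0.62 and -0.68, and -1.22 and -1.28 over the 12), and of 8 fibroblast markers 5 were (medians -0.093 and -0.14). The part of these cells in the levels of the 8 genes was not tested.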

How the data were processed

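RNA from mouse tissue, extracted with a kit for fixed and embedded tissue per the labels' protocols, was hybridised to Affymetrix whole-transcript arrays. The authors made the deposited log2 levels with RMA in Affymetrix Expression Console, per the submitters' processing notes; versions are not given in the sources used here, and the log base was inferred from RMA. Levels ran from 2.16 to 22.0, and 96 to 222 rows per array lay above 16, for which no reason is given. Of 65956 rows, 30604 had 1 gene symbol, and the row of highest mean was kept per gene, leaving 30142 genes. Dim genes were kept, since a filter could keep a gene only through the group where it is high. The number of arrays limits the precision.

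Groups came from the labels. limma 3.58.1 (R 4.3.3) fitted a linear model with all 5 groups to every gene, moderated the variances by empirical Bayes, and tested on both sides and adjusted by Benjamini-Hochberg over the 30142 genes at a threshold of 0.05. PALBO-MET entered the fit but no comparison. Differences are of log2 levels, so a fold understates the change of dim genes. The arrays that stand apart were found from the scatter of 1 set of dim rows (mean level 4.5 to 5.0) and the correlations of 5317 bright rows, without regard to group. On simulated data of 30142 genes, the test for metastasis against tumour bladder recovered 96 of 100 genes changed by 2 on the log2 scale and 71 of 100 changed by 1. The changed genes were drawn at random, and the noise was independent normal with the same spread on every array. The simulation thus held no arrays that stand apart and no split among metastases, and these shares may not hold for the real arrays.

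The genes and lists were chosen with earlier results of these data known, so their directions, sizes, ranks and calls are not independent evidence. No list was tested. Genes named beside the 8 were those of a list that passed or, where none passed, the highest and lowest, and the 3 most like Lyz2, Ctsk and Ctss. Gene levels given for single markers (Csf1r, Ccr2, Fcgr1, Aif1, Cd68, Alb, Fgb, Ttr, Apoc3, Upk1a and the osteoclast and lung markers) were chosen after their values were seen. Alternatives were normalization, array weights, the prior, dim genes, sets of arrays, the groups fitted, the replicate number as a block and each array left out. Promoters came from a RefSeq table of GRCm38.p6, which matched 8 of the 9 listed genes. Some engineered genes are not reported here.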

Additional observations from a re-analysis of the deposited data

Results flagged for a closer look

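On tumour bladder 1 the level of Ctsb, 6.68, lay far below the nearest other tumour bladder, at 8.41, a gap past Dixon's limit for 7 samples. Chance gives such a gap in about 1 in 20 groups, and of the 24 groups tested 1 held such a gap. Among tumour bladders, Lyz2, at 7.21, was also lowest on that array, as were Lyz1, Ctsk, Ctss, Ctsl and Ctsz, but not Acp5. The low level was thus not particular to Ctsb. That array had the highest median level of all arrays, 5.48. Its dim rows scattered with an SD of 0.33, past the limit for arrays that stand apart, but its bright rows correlated with another array at r = 0.654. What sets its low levels was not tested.

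The PALBO-MET array enters no comparison, and 7 of the 8 genes on it lay above every normal bladder, where 21.3% of all genes did. Lyz1 was at 9.55 against a highest normal bladder of 7.83, Lyz2 at 12.84 against 9.90, Ctsk at 6.17 against 6.12 and Ctss at 7.94 against 6.49. Ctsb was at 10.51 against 8.66, Ctsz at 7.69 against 6.75 and Acp5 at 6.40 against 5.84. With 1 array these are values with no test.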

How the results depend on the processing

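Differences are log2 values throughout. Between metastases and bladders the set of arrays decided the size and the calls. Without the 8 arrays, 3 genes and 2 of the 8 passed in each comparison, and the median of the 8 was 2.26 against tumour and 2.35 against normal bladders. With only the 8 arrays it was 0.082 and 0.081, and Lyz2 (-0.072) and Ctss (-0.22) turned lower against normal. With only the 2 groups, 1 gene passed for metastasis against normal. Further choices over the 12 arrays were added after seeing the data. Against tumour, only the 2 groups gave 1 gene and 0 of the 8, and PALBO-MET as a metastasis gave 1 and 1. Leaving out 1 array gave 3 to 28 genes (13 without metastasis 1, 28 without metastasis 2, 5 without tumour bladder 6). Against normal, only the 2 groups gave 126 genes and 5 of the 8, array weights 198 and 6, quantile normalization and PALBO-MET as a metastasis 1 of the 8 each. Leaving out 1 array gave 0 to 16 genes and 0 to 2 of the 8, with 0 genes without normal bladder 2, 2 without normal bladder 1, 11 without metastasis 1 and 16 without metastasis 2. The lost calls' cause was not tested beyond the fewer arrays fitted.

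For the other comparisons no call was made under any setting, and small differences changed sign. Tumour against normal: only the 8 arrays gave a median of -0.0066, Lyz2 -0.50, Ctss -0.22 and Ctsz -0.039, and without them Lyz1 was 0.32 and Ctsl -0.094. Array weights gave Lyz1 0.20, a term for the 8 arrays Ctsb -0.013 and Ctsl -0.0092, and quantile normalization Ctsl -0.017. Treated against normal without the 8 arrays: median 0.28, Lyz1 0.25, Lyz2 0.39, Ctss 0.68, Ctsz 0.30 and Acp5 0.076. Array weights: median 0.26, Lyz1 0.12, Lyz2 0.22, Ctss 0.73, Ctsb 0.41 and Ctsz 0.16. A term for the 8 arrays gave Ctsl -0.0045. Treated against tumour: Ctsb was 0.25 and Ctsl 0.99 with array weights (Ctsl 1.07 against normal), and Ctsk -0.011 with a term for the 8 arrays. One array left out gave, for tumour against normal, Lyz1 -0.31 to 0.031, Lyz2 -0.023 to 0.61, Ctsb -0.16 to 0.35 and Ctsl -0.14 to 0.21. For treated against tumour it gave Ctsk -0.025 to 0.13, Ctsb -0.68 to 0.067 and Ctsl -0.50 to 0.44. For treated against normal it gave Ctss -0.54 to 0.13, Ctsb -0.62 to 0.12, Ctsl -0.46 to 0.48 and Ctsz -0.24 to 0.038.

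The replicate block gave Lyz1 0.016 for tumour against normal, Lyz1 0.0035 and Ctsk -0.019 for treated against tumour, and for treated against normal a median of 0.16, Lyz1 0.020, Lyz2 0.16, Ctss 0.20, Ctsb 0.040, Ctsz 0.22 and Acp5 0.028. It made no call in any comparison. No pairing by number was seen. Deviations correlated above 0.1 in 4 of 20 pairs of the same number and in 34 of 111 pairs of other numbers. Of 18 arrays, 1 was most like an array of its own number. By the rule that found them, the arrays that stand apart correlated little with any other, so the check could hardly show a pairing there.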
